A study of Homo sapiens with 12 samples.

Results

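The 5 subunit genes of the transcription factor NF-κB (NFKB1, NFKB2, REL, RELA and RELB), its feedback inhibitor genes NFKBIA and TNFAIP3, and the target genes TNFAIP2, BIRC3 and CCL2 were read by their symbols from a table of RNA-seq counts. All 10 genes were found among the 49651 entries that had an exon length, many of which had no counts. The cells were D283, a human medulloblastoma line. One group is labelled as having the kinase genes ABL1 and ABL2 genetically inactivated and the other is its scrambled control, and both were grown in the same medium. Each group had 3 libraries, S82, S83 and S84 for the inactivated cells and S79, S80 and S81 for the controls, and each library was sequenced on 2 lanes that were summed. The sources used here do not give the means of inactivation, or whether the cells were a pool or a clone. The labels do not say that each library is its own culture, and p-values therefore reflect spread among these libraries alone, which may be technical.

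NF-κB proteins form dimers that share a Rel homology domain for binding DNA. In resting cells the inhibitor IκBα, the product of NFKBIA, holds dimers of RELA or REL with p50, the processed product of NFKB1, in the cytoplasm until the IKK kinase complex marks it for destruction. A slower, non-canonical branch runs through the kinase NIK and yields dimers of RELB with p52, the processed product of NFKB2. Active NF-κB induces its own inhibitors as feedback, and among its other known targets are survival genes and the monocyte-attracting chemokine CCL2.

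Depth and identity of the libraries were as follows. Libraries held between 34292341 and 49034159 counts in the inactivated group and between 33505903 and 35893081 in the control group. ABL1, the first targeted kinase gene, had 62.1, 62.3 and 61.1 CPM (counts per 1000000, with library sizes scaled by the trimmed mean of M values) in inactivated libraries S82, S83 and S84, against 157, 148 and 154 CPM in control libraries S79, S80 and S81. RNA of the targeted gene was lower but present in every inactivated library. ABL2 had 97.5, 112 and 102 CPM in the inactivated libraries, against 144, 136 and 134 CPM in the control libraries, again with no overlap. Of 10 genes that mark D283 cells or Group 3 medulloblastoma, 9 were expressed enough to be tested, and these included MYC and OTX2. All 9 passed the test described next, 6 higher and 3 lower in inactivated cells. MYC changed 1.09-fold and OTX2 0.80-fold, while IMPG2, EYS and ABCA4 rose 4.73-fold, 4.8-fold and 8.70-fold. NRL, which was not tested, was listed at 0 but has a copy on an alternate locus, so that 0 is uncertain. Of 14704 genes tested, 59.3% passed an adjusted p of 0.05 in edgeR's quasi-likelihood test, 29.6% higher and 29.7% lower in inactivated cells, so a call alone is common in this comparison.

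Letters that NF-κB is known to bind were looked for in the 250 bases before each start in the RefSeq promoter table (GRCh38.p14), which held 8 of the 10 genes. RELB and CCL2 had no entry. The 10-base κB consensus, read on both strands, matched before at least 1 start of 6 of these 8 genes, against 11.8% of the 27305 genes in the table. The genes had been chosen as known targets or subunits of NF-κB, so this comparison is a description and no test. The stretches around these matches are shown because they place subunit genes, inhibitor genes and a survival gene side by side. Each is written 5′ to 3′ on the strand of its gene, with the bases that match the consensus on either strand in capitals:
NFKB1, chr4:102501300-102501329, + strand: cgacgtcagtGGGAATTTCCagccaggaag
NFKB2, chr10:102394461-102394490, + strand: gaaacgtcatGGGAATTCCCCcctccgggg
NFKB2, chr10:102394490-102394519, + strand: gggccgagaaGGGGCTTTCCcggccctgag
NFKB2, chr10:102395674-102395703, + strand: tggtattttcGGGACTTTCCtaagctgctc
REL, chr2:60881517-60881546, + strand: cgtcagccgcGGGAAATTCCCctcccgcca
NFKBIA, chr14:35404811-35404840, - strand: tgactggcttGGAAATTCCCcgagcctgac
TNFAIP3, chr6:137867188-137867217, + strand: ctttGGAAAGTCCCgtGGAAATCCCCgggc
BIRC3, chr11:102317275-102317304, + strand: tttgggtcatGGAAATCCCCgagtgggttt
BIRC3, chr11:102317339-102317368, + strand: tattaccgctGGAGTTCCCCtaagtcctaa

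A further NFKB2 match, GGGGCTTCCC, began 176 bases before the third start listed for that gene. Read on the strand of the motif, GGGAATTTCC occurred before NFKB1, REL and NFKBIA, and GGGACTTTCC before NFKB2 and TNFAIP3. GGGGATTTCC occurred before TNFAIP3 and BIRC3. The listed starts of TNFAIP3 and TNFAIP2, and those with a match in NFKB2, lie inside the span that the count table gives to the gene, so they are not its outermost starts. In TNFAIP3 both matches lay within 67 bases of the start. RELA and TNFAIP2 had no match in these windows, which says only that these letters are not in them. The GC box GGGCGG, on either strand, lay before 7 of the 8 genes and before 46.2% of all genes in the table, BIRC3 being the exception. The AP-1 letters TGACTCA lay before none of the 8, against 5.19% of genes in the table. Genes with a match included NFKB2 and TNFAIP3, which rose, and REL and BIRC3, which did not pass the test, and no match was taken as a bound site.

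Across the 10 genes, 7 rose in the inactivated cells, none fell and 3 did not pass the test, beside the 29.6% of all tested genes that rose. The sizes ran from 1.09-fold for NFKBIA to 37.0-fold for CCL2. The median log2 fold change was 0.61 over the 10 genes and 0.0031 over all tested genes. Against a fold of 1.5 as the null, 4 of the 10 passed, RELB, TNFAIP3, TNFAIP2 and CCL2, beside 7.67% of all tested genes in that direction. For 8 of the 10, every inactivated library lay above every control library, beside 31.4% of all tested genes. CCL2 and TNFAIP2 entered the test through their inactivated libraries: the filter asked for about 0.282 CPM in 3 libraries, which was met by 3 inactivated libraries for each gene, by 1 control library for CCL2 and by 2 for TNFAIP2. Letting genes in that way favours those that differ between the groups, and the 10 genes were chosen with earlier results known. The counts of 7, 4 and 8 and the median of 0.61 are therefore descriptions. In bulk RNA, more cells expressing a gene and more RNA per cell cannot be told apart.

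**Figure D1:**
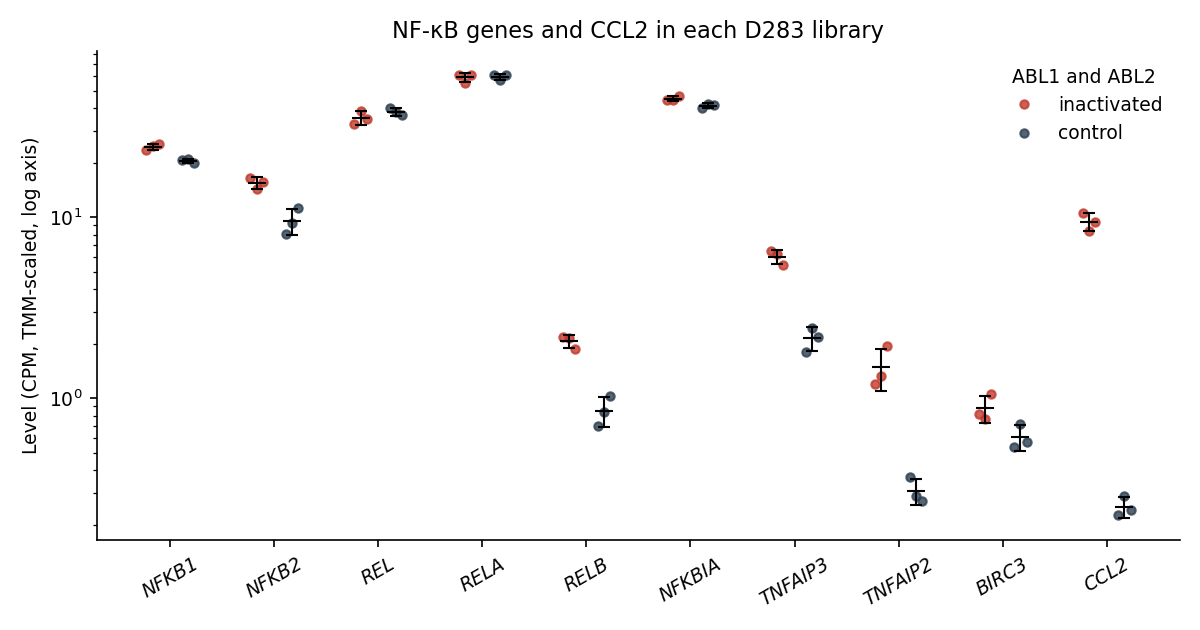
Level of each gene in CPM (log axis), with 1 point per library, inactivated libraries left of control libraries, and bars for the mean ± SD of 3 libraries. CCL2 lies between 8.43 and 10.6 CPM in the inactivated libraries and between 0.225 and 0.288 CPM in the control libraries, while the points of REL and of RELA overlap between the groups.

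Of the subunit genes, RELB, NFKB2 and NFKB1 rose, and RELA and REL did not pass the test. RELB and NFKB2, the genes of the non-canonical dimer, had the higher point estimates. RELB, the subunit that pairs mainly with p52, had 2.19, 2.14 and 1.87 CPM in inactivated libraries S82, S83 and S84, against 0.703, 0.835 and 1.02 CPM in control libraries S79, S80 and S81. No inactivated library came near the control range. The fold change was 2.43 (95% interval 1.82 to 3.23), a log2 fold change of 1.28 ± 0.198 (SE) (edgeR's quasi-likelihood test, adjusted p 1.73e-05). The gene was thinly expressed, with 250 counts in the inactivated group and 88 in the control group.

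NFKB2, which encodes the precursor p100 and its product p52, had 16.5, 14.3 and 15.7 CPM in the inactivated libraries, against 8.10, 9.30 and 11.3 CPM in the control libraries. The groups did not overlap, although the control libraries spread widely, at 9.55 ± 1.59 CPM (SD, n = 3). Its log2 fold change was 0.70 ± 0.096, or 1.62-fold (edgeR adjusted p 4.52e-06). NFKB1, which encodes the precursor p105 and its product p50, had 23.6, 24.6 and 25.5 CPM in the inactivated libraries, against 20.7, 20.8 and 19.8 CPM in the control libraries. All inactivated values again lay above all control values. The rise was 1.199-fold (95% interval 1.10 to 1.31) (edgeR adjusted p 0.00076).

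RELA, which encodes the p65 subunit of the canonical dimer, had 61.2, 55.2 and 61.1 CPM in the inactivated libraries, against 60.9, 57.0 and 61.3 CPM in the control libraries. The values of the groups were interleaved, and the lowest was inactivated library S83. Its fold change was 0.99 with a 95% interval of 0.92 to 1.07 (edgeR adjusted p 0.832). The log2 fold change turned positive in lane 2 alone (0.003), without inactivated library S83 (0.038) and without control library S79 (0.01). REL, which encodes the c-Rel subunit known from lymphoid cells, had 32.8, 38.8 and 35.05 CPM in the inactivated libraries, against 40.3, 38.0 and 36.5 CPM in the control libraries. Inactivated library S83 lay inside the control range and the other two lay below it. Its log2 fold change of -0.10 ± 0.062 did not pass (edgeR adjusted p 0.161), but without S83 it was -0.17 with an adjusted p of 0.00897.

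Per length of exon, the subunit genes kept their main order while their shares moved. CPM was divided by exon length in kilobases, since a longer transcript gives more reads, and the sum over the 5 genes was 34.01 to 36.3 CPM per kilobase in the inactivated libraries and 31.9 to 33.7 in the control libraries. RELA made up 61.4 ± 1.44% of that sum in inactivated libraries and 66.8 ± 0.934% in control libraries (SD, n = 3 each). NFKB2 made up 11.6 ± 0.520% in inactivated libraries and 7.69 ± 1.19% in control libraries. NFKB1 held 15.8 ± 0.824% and 14.2 ± 0.757% in the inactivated and the control libraries, with libraries at 15 to 16.6% and at 13.5 to 15%, so that the edges touched at this rounding. RELB remained the smallest share, at 2.25 ± 0.232% in inactivated libraries and 1.00 ± 0.177% in control libraries. The shares of REL overlapped, with 8.01 to 10.1% in inactivated libraries and 9.56 to 10.7% in control libraries. The order of NFKB2 and REL differed by group: NFKB2 was above REL in all 3 inactivated libraries and below it in all 3 control libraries. For REL the summed exon length of 11345 bases includes all annotated exons, so its level per length is a low estimate if the cells use shorter transcripts.

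**Figure D2:**
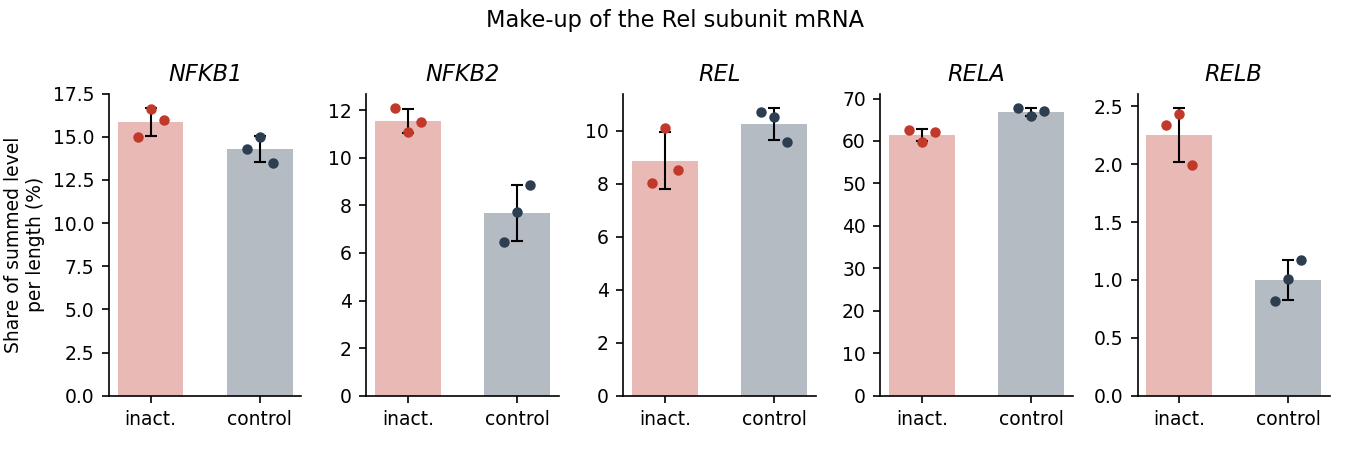
Share of each subunit gene in the summed level per exon length of the 5 genes, in percent, with points for libraries, bars for means and whiskers for SD (3 libraries per group, inactivated left). RELB and NFKB2 take larger shares in the inactivated libraries and RELA a smaller one, 61.4% in inactivated and 66.8% in control libraries. The vertical axes differ between panels and all start at 0.

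The feedback inhibitors moved by very different amounts. TNFAIP3 encodes A20, a ubiquitin-editing enzyme that shuts off signalling upstream of IKK. It had 6.48, 6.25 and 5.41 CPM in inactivated libraries S82, S83 and S84, against 1.80, 2.45 and 2.17 CPM in control libraries S79, S80 and S81. All inactivated libraries lay well above all control libraries. The fold change was 2.83 (95% interval 2.34 to 3.43) (edgeR adjusted p 1.1e-08). TNFAIP3 shares 894 exon bases with WAKMAR2, a gene on the opposite strand with 16 counts in the inactivated group and 1 in the control group. The sources used here do not say how strand was counted, so reads from those bases cannot be assigned with certainty.

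NFKBIA had 44.2, 44.4 and 46.7 CPM in the inactivated libraries, against 39.9, 42.4 and 41.7 CPM in the control libraries. The groups did not overlap, but the gap between them was narrower than the range within either. The fold change was 1.09 (95% interval 1.01 to 1.17) (edgeR adjusted p 0.0352). The call was lost without inactivated library S84 (adjusted p 0.148), without control library S79 (0.104) and without control library S81 (0.0697), and with DESeq2 (0.0938). Per exon length NFKBIA was the most abundant of the 10 genes in both groups, at 28.9 ± 0.886 CPM per kilobase in inactivated libraries and 26.5 ± 0.834 in control libraries (SD, n = 3 each). TNFAIP3 stood at 0.968 ± 0.0904 CPM per kilobase in inactivated libraries and 0.342 ± 0.0520 in control libraries.

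Among the target genes CCL2 and TNFAIP2 rose and BIRC3 did not pass the test. CCL2, which draws monocytes through the receptor CCR2, had 387, 418 and 320 counts in inactivated libraries S82, S83 and S84, against 8, 10 and 8 counts in control libraries S79, S80 and S81. That is 10.6, 8.43 and 9.35 CPM in the inactivated libraries, against 0.225, 0.288 and 0.241 CPM in the control libraries. The inactivated libraries stood far above the control libraries, whose counts were low but over the limit of 3 that a count of 0 allows. The fold change was 37.0 (95% interval 28.5 to 48.1), a log2 fold change of 5.21 ± 0.180 (edgeR adjusted p 1.24e-14). It ranked 28th from the top by log2 fold change among the 14704 genes tested. Lane 1 and lane 2, fitted alone, each kept the call, with log2 fold changes of 4.97 and 5.50. Every fit without 1 library kept it too, at 5.12 to 5.31.

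Per exon length, CCL2 was the third of the 10 genes in inactivated libraries, at 12.8 ± 1.46 CPM per kilobase, below NFKBIA and RELA. In control libraries it was the seventh at 0.339 ± 0.0442 CPM per kilobase, and its values overlapped those of TNFAIP3 and of RELB. No other pair of neighbours in the order of levels overlapped in either group. The other chemokine genes fixed as neighbours of CCL2 on chromosome 17, CCL7, CCL11, CCL8, CCL13 and CCL1, were each listed at 0 in all 6 libraries. A count of 0 still allows up to 0.0875 CPM per inactivated library and 0.0895 CPM per control library. The receptor genes CCR2 and CCR4 had 0 and 2 counts in the inactivated group and 0 and 1 in the control group.

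TNFAIP2, a gene first found by its induction with TNF and known from endothelial and myeloid cells, had 1.203, 1.33 and 1.93 CPM in the inactivated libraries, against 0.366, 0.288 and 0.271 CPM in the control libraries. All inactivated values exceeded all control values, and library S84 was the highest. The fold change was 4.73 with a wide 95% interval of 3.13 to 7.16 (edgeR adjusted p 1.51e-06), resting on 176 counts in the inactivated group and 32 in the control group. BIRC3, which encodes the apoptosis inhibitor cIAP2, had 0.820, 0.766 and 1.05 CPM in the inactivated libraries, against 0.535, 0.720 and 0.572 CPM in the control libraries. The groups did not overlap, yet the log2 fold change of 0.51 ± 0.259 did not pass the test (edgeR adjusted p 0.0977). With 104 counts in the inactivated group and 63 in the control group, its 95% interval ran from 0.98-fold to 2.08-fold, which includes both no change and a doubling.

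The genes lie on chromosomes whose other genes did not all stay level. For CCL2, on chromosome 17 at 34255285 to 34257203 (GRCh38.p14, forward strand), the median log2 fold change of the 67 other tested genes within 5 Mb was 0.45, and 70.1% of them rose. Its own log2 fold change was 4.76 above that median. For TNFAIP3, on chromosome 6 at 137866349 to 137883312 (forward strand), the 30 other tested genes within 5 Mb had a median of 0.17, and those of the whole chromosome one of 0.51. Its own change was 1.33 above the local median and 0.99 above that of the chromosome. For the other 8 genes the local medians lay between -0.10 and 0.043. With the local median as an offset, 7 of the 10 genes were past the threshold. NFKBIA lost its call (adjusted p 0.12) and REL gained one in the lower direction (log2 fold change -0.15, adjusted p 0.0495).

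**Figure D3:**
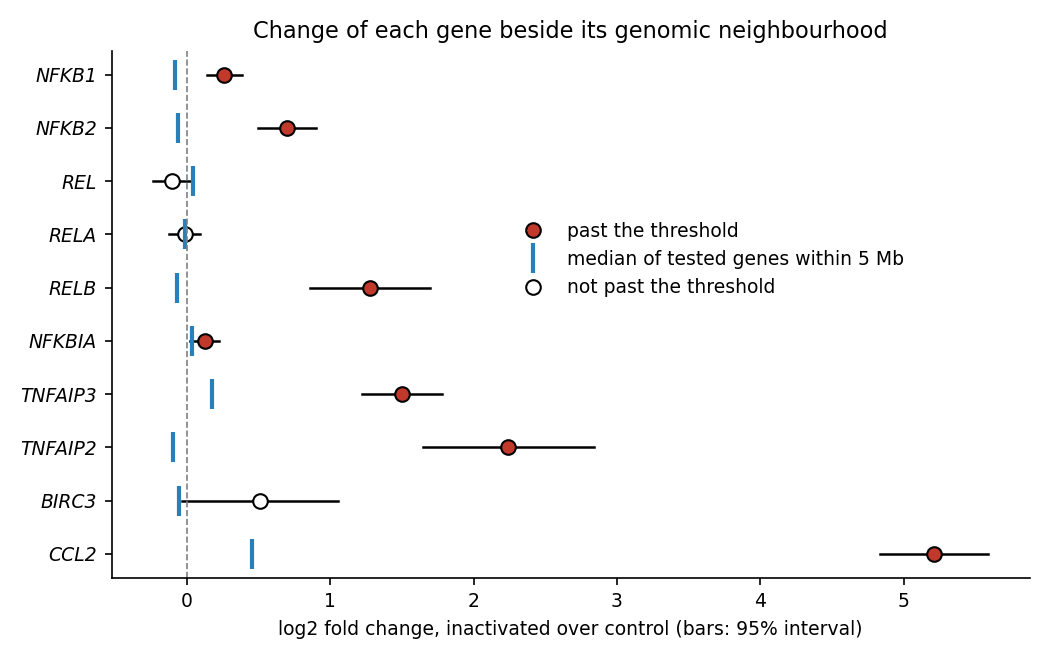
Log2 fold change of each gene, inactivated over control, with its 95% interval from edgeR; filled points passed the threshold. The blue marks give the median log2 fold change of the other tested genes within 5 Mb, 0.45 at CCL2 and 0.17 at TNFAIP3. CCL2 stands far to the right of its mark, at 5.21.

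The rest of the pathway did not move one way. Of 145 further pathway genes in 7 lists, 82 were expressed enough to be tested, of which 31 rose, 27 fell and 24 did not pass. That is 37.8% higher and 32.9% lower, beside 29.6% and 29.7% of all tested genes, with a median log2 fold change of 0.037. Of the 63 that were not tested, 11 have a copy on an alternate locus in the table or share most of their exon bases with another gene, and how reads with several alignments were counted was not stated. TNF, LTA and LTB are among these, so their listing at 0 does not show that the cells lack them.

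Of 7 tested genes for IκB proteins and for proteins that act on them or on IKK, 4 rose, 2 fell and 1 did not pass. The shares were 57.1% higher and 28.6% lower, beside 29.6% and 29.7% of all tested genes. Among the genes of the IκB proteins themselves, NFKBIE, NFKBIZ and BCL3 rose with log2 fold changes of 0.93, 0.34 and 0.34. NFKBID did not pass at -0.38. NFKBIB was not tested, with 5 counts in the inactivated group and 4 in the control group. It has a copy on an alternate locus, so its counts are uncertain. NFKBIE, which encodes the inhibitor IκBε and is itself an NF-κB target, had 8.69, 6.45 and 7.72 CPM in the inactivated libraries, against 4.08, 3.54 and 4.33 CPM in the control libraries (edgeR adjusted p 2.3e-06). Its rise of 1.90-fold was a log2 fold change of 0.93, on chromosome 6, whose tested genes had a median of 0.51. NKIRAS2, on chromosome 17, which encodes a Ras-like protein that binds IκB proteins, rose to 75.95 ± 3.81 CPM in inactivated libraries, against 61.8 ± 3.06 CPM in control libraries (SD, n = 3 each here and below). Its log2 fold change of 0.30 was below the chromosome's median of 0.37. Both medians cover whole chromosomes and may differ from those of the nearest genes, which were not taken for NFKBIE and NKIRAS2. IKBIP, whose product interacts with an IKK subunit, fell to 26.0 ± 0.504 CPM in inactivated libraries, against 34.2 ± 2.07 CPM in control libraries. NKIRAS1, a relative of NKIRAS2, fell to 27.5 CPM in inactivated libraries, against 32.0 CPM in control libraries. NFKBIZ, BCL3, NFKBID, NFKBIB and NKIRAS1 were picked after their values were seen.

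Among IKK and other pathway kinases and their partners, 9 of 19 tested genes rose, 4 fell and 6 stayed short of the threshold (median log2 fold change 0.11). That is 47.4% higher and 21.1% lower, beside 29.6% and 29.7% of all tested genes. Those that rose included MAP3K7, TAB2 and RIPK1 on chromosome 6 and MAP3K14, MAP3K3 and TBKBP1 on chromosome 17. The median log2 fold changes of these chromosomes were 0.51 and 0.37. IKBKE, also among the 9, entered the test through its inactivated libraries alone. The count of 9 is therefore a description. The IKK subunit genes themselves, CHUK, IKBKB and IKBKG, had log2 fold changes of -0.11, -0.057 and 0.11 and did not pass. MAP3K7, which encodes the kinase TAK1 upstream of IKK, rose to 158 ± 4.08 CPM in inactivated libraries, against 101 ± 0.801 CPM in control libraries. TAB2, its adaptor, rose to 146 ± 3.24 CPM in inactivated libraries, against 96.96 ± 3.80 CPM in control libraries. Both lie on chromosome 6, where the median log2 fold change of tested genes was 0.51, and their own were 0.64 and 0.59. The chromosome medians in this paragraph cover whole chromosomes and may differ from those of the nearest genes, which were not taken here. TBKBP1, which encodes a TBK1-binding protein, rose to 53.1 ± 2.69 CPM in inactivated libraries, against 30.5 ± 1.82 CPM in control libraries. MAP3K14, which encodes the kinase NIK of the non-canonical branch, rose to 6.07 CPM in inactivated libraries, against 4.10 CPM in control libraries. TBKBP1 and MAP3K14 lie on chromosome 17, whose tested genes had a median of 0.37, and their log2 fold changes were 0.80 and 0.57. CHUK, IKBKB, IKBKG, MAP3K14, RIPK1, MAP3K3 and IKBKE were picked after their values were seen.

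Of 23 tested TRAF, adaptor and ubiquitin genes, 6 rose, 5 fell and 12 stayed short of the threshold (median log2 fold change -0.005). Both shares, 26.1% higher and 21.7% lower, were under the 29.6% and 29.7% of all tested genes. CARD10, which encodes a scaffold that links receptors to IKK through BCL10 and MALT1, rose to 2.93 ± 0.331 CPM in inactivated libraries, against 1.15 ± 0.252 CPM in control libraries. MALT1 fell to 43.5 ± 2.22 CPM in inactivated libraries, against 59.8 ± 2.64 CPM in control libraries. BIRC2, which encodes cIAP1, the close relative of BIRC3, rose to 45.9 ± 1.61 CPM in inactivated libraries, against 38.1 ± 0.212 CPM in control libraries.

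Of 25 receptor genes 9 were tested, and 6 of these fell, 2 rose and 1 stayed short of the threshold (median log2 fold change -0.59). In shares, 66.7% fell and 22.2% rose, beside 29.7% and 29.6% of all tested genes. TNFRSF1A, the main TNF receptor gene, had 40.6, 36.3 and 39.8 CPM in inactivated libraries, against 55.9, 57.3 and 60.0 CPM in control libraries (edgeR adjusted p 1.91e-08). IL1RAP, which encodes the shared chain of interleukin-1 family receptors, fell to 18.3 ± 0.220 CPM in inactivated libraries, against 47.3 ± 1.82 CPM in control libraries. TLR3, a receptor for double-stranded RNA, fell to 0.221 ± 0.0409 CPM in inactivated libraries, against 1.40 ± 0.304 CPM in control libraries. No inactivated library of TLR3 reached the filter, so it was tested through its control libraries alone. That favours a difference, and its place among the 6 is a description. Of 12 ligand genes only 3 were tested. TNFSF14, which encodes the ligand LIGHT, rose to 1.71 ± 0.439 CPM in inactivated libraries, against 0.482 ± 0.0705 CPM in control libraries. TNFSF13B, which encodes BAFF, fell to 0.127 ± 0.0504 CPM in inactivated libraries, against 0.511 ± 0.0520 CPM in control libraries, and it too entered the test through the control libraries alone. IL33 fell to 4.54 ± 0.0956 CPM in inactivated libraries, against 6.34 ± 1.18 CPM in control libraries.

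Of 39 other known NF-κB targets 21 were tested, and 9 rose, 8 fell and 4 stayed short of the threshold (median log2 fold change 0.088). That is 42.9% higher and 38.1% lower, beside 29.6% and 29.7% of all tested genes. TNFAIP8, a gene induced by TNF, fell to 32.1 ± 0.278 CPM in inactivated libraries, against 74.7 ± 2.15 CPM in control libraries. GADD45B, a stress response gene, fell to 6.38 ± 0.667 CPM in inactivated libraries, against 17.9 ± 1.31 CPM in control libraries. FTH1, the ferritin heavy chain gene, fell to 656 ± 29.3 CPM in inactivated libraries, against 1185 ± 18.6 CPM in control libraries, but 73.2% of its exon bases are shared with other entries and its counts are uncertain. Chosen after their values were seen, the adhesion molecule gene ICAM1 rose to 2.58 CPM in inactivated libraries, against 1.14 CPM in control libraries, and the chemokine gene CXCL10 had 57 counts in the inactivated group and 9 in the control group. CXCL10, like the kinase gene IKBKE in the list above, entered the test through its inactivated libraries alone. The chemokine gene CXCL8 and the cytokine gene IL6 had 0 and 3 counts in the inactivated group and 1 and 4 in the control group.

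**Figure D4:**
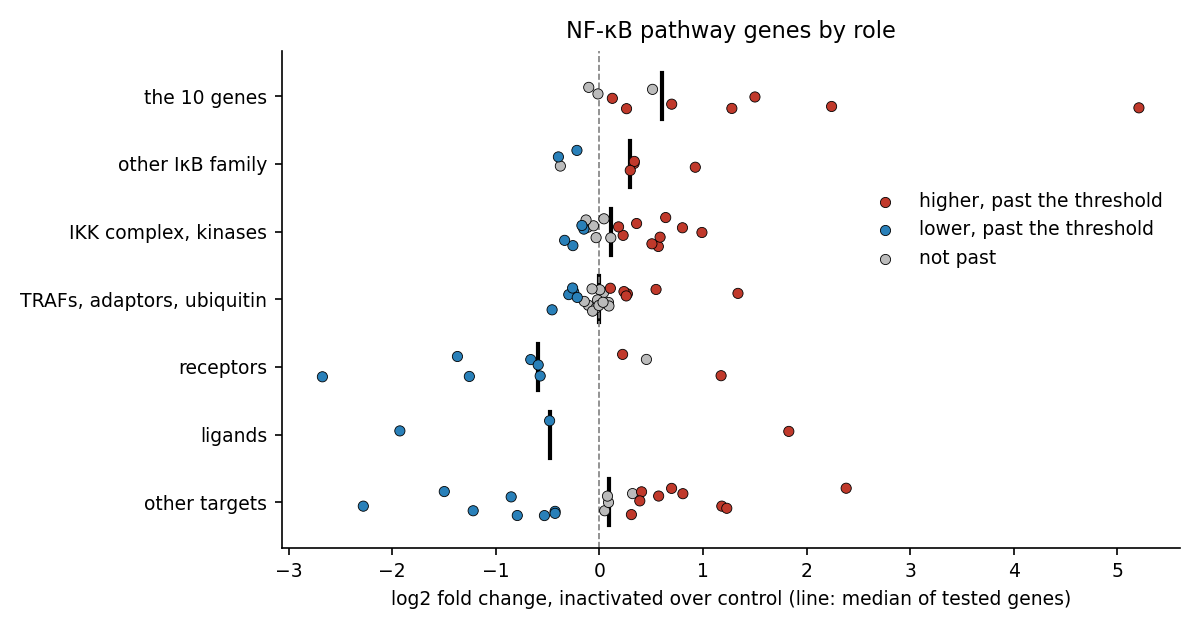
Log2 fold change of every tested gene, inactivated over control, by role in the pathway; colours give the direction of genes past the threshold, grey points did not pass, and black lines are medians. The median is 0.61 for the 10 genes, -0.59 for receptors and 0.088 for other targets. No CC chemokine gene beside CCL2 was tested.

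Markers of cells that are common sources of CCL2 were looked at in the same libraries. Of 15 monocyte, macrophage and microglia markers only CD68 was tested, at 0.757 ± 0.277 CPM in inactivated libraries and 0.614 ± 0.233 CPM in control libraries, which did not pass (edgeR adjusted p 0.407). The summed level of these markers was 0.902 to 1.90 CPM in inactivated libraries and 1.35 to 1.72 CPM in control libraries. Of the 15, 5 were listed at 0 in all libraries, TYROBP and CD163 among them, and also AIF1, which has copies on alternate loci and whose 0 is uncertain. Low counts lay on both sides: CSF1R had 34 and FCER1G 29 in the inactivated group, against 10 and 9 in the control group. CD14 had 5 and ITGAM 1 in the inactivated group, against 27 and 25 in the control group. PTPRC had 3 counts in the inactivated group and 1 in the control group, but has a copy on an alternate locus, so its counts are uncertain. Of 9 endothelial markers 2 were tested, and their sum was 9.68 to 11.02 CPM in inactivated libraries and 4.15 to 4.61 CPM in control libraries. KDR alone rose, to 8.41 ± 0.690 CPM in inactivated libraries, against 2.22 ± 0.342 CPM in control libraries. VWF, the other tested marker, was expressed at 1.86 CPM in inactivated libraries and 2.02 CPM in control libraries. It did not pass (edgeR adjusted p 0.556). The markers CDH5 and PECAM1 had 1 and 2 counts in the inactivated group and 0 and 7 in the control group. Of 10 fibroblast and pericyte markers 7 were tested, of which 4 rose and 2 fell, beside 29.6% and 29.7% of all tested genes. The summed level of the 10 was 149 to 163 CPM in inactivated libraries and 119 to 123 CPM in control libraries. ACTA2, COL1A1 and PDGFRB were among those that changed, with log2 fold changes of 0.77, 0.90 and -0.79. DCN, picked after its values were seen, changed most, at -1.75. ACTA2 alone held 88.3 CPM of that sum in inactivated libraries and 51.9 CPM in control libraries. It shares 37.6% of its exon bases with other entries, so its counts and the sum are uncertain. COL3A1 was listed at 0 but has a copy on an alternate locus, so that 0 does not show its absence. The part of these markers in the CCL2 result was not tested.

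By pattern over the 6 libraries, the genes nearest to CCL2 were FOXA3, FES, CASP8, an alternate-locus entry of MUC16 and LINC02487. Likeness was the Euclidean distance between log2 CPM values centred on each gene's mean, and the distances were 0.491, 0.520, 0.534, 0.641 and 0.660. FOXA3, a forkhead transcription factor gene, had 447 counts in the inactivated group and 5 in the control group. FES, a cytoplasmic tyrosine kinase gene, had 448 and 5, and CASP8, which encodes the initiator caspase of death receptors, had 592 and 10, in the inactivated and control groups. All 5 were near the counting limit in control libraries, and with 2 groups such a ranking mostly finds genes with a difference of similar size.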

How the data were processed

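The 10 genes, the gene lists and the alternatives were chosen with earlier results of these data known. Per the labels' protocols, mRNA was enriched from total RNA, made into libraries with the KAPA mRNA HyperPrep Kit and sequenced as paired-end reads. The authors deposited raw counts for every gene and lane, not normalized. The submitters' processing notes name STAR 2.7.2b, featureCounts 1.6.3, DESeq2 1.36.0 and the build GRCh38.p14. The sources used here do not say how strand, or reads aligning to several places, were treated. Exon lengths per gene, another column that the authors deposited, served for levels per length. Of 49677 entries, 26 without an exon length were left out. Lanes were summed per library. Genes were filtered with filterByExpr (minimum count 10, minimum total 15), scaled by TMM and compared two-sided by the quasi-likelihood F test of edgeR 4.0.16. The p-values of all 14704 tested genes were adjusted by Benjamini and Hochberg's method, with 0.05 as the threshold. Levels are mean ± SD of 3 libraries and log2 fold changes ± SE. The procedure was tested on simulated data in which few genes differed. In the real data 59.3% of tested genes passed, so the simulation does not cover this setting. Named genes are the targeted kinases, the 10 genes, up to 3 called genes per list with the lowest p (up to 2 by mean CPM where none was called) and the 5 tested genes nearest to CCL2 in pattern. Others were named after their values were seen. Alternatives were other scaling, DESeq2 1.42.0, limma-voom (limma 3.58.1), no filter, a fold of 1.5 as the null, each lane alone, each library left out and offsets for chromosome medians. The floor of 3 counts covers counting error only.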

Additional observations from a re-analysis of the deposited data

How the results depend on the processing

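The number of the 10 genes past the threshold was 7 in the main analysis and 6 to 8 when 1 library was left out. These counts take calls in either direction, beside 59.3% of all tested genes in the main analysis. The 8, found without inactivated library S83, included REL in the lower direction. It was 6 with DESeq2, without a filter and in lane 1 alone, and 7 with RLE scaling, limma-voom, lane 2 alone and the chromosome offset. Against a fold of 1.5 as the null, 4 of the 10 genes passed, RELB, TNFAIP3, TNFAIP2 and CCL2, beside 2280 of all genes (8726 in the main analysis) and 16 of the further pathway genes (58 in the main analysis); 7.67% of all tested genes passed in the higher direction. A stricter null calls fewer genes by construction. CCL2 and TNFAIP2 entered the test through their inactivated libraries, so the count of 4 is a description. RELB, TNFAIP3, TNFAIP2 and CCL2 kept their calls and their direction under all 15 alternatives, with log2 fold changes of 0.93 to 1.68, 0.99 to 1.61, 2.03 to 2.40 and 4.76 to 5.50. NFKB1 and NFKB2 lost theirs only against the fold of 1.5. NFKBIA lost its call under 8 of 15, with log2 fold changes of 0.09 to 0.16, and the cause was not tested. The RELA change, which was not called, turned to 0.003 in lane 2 alone and to 0.000 with the local median as an offset, an alternative chosen after seeing the data, and ran from -0.052 to 0.038 when 1 library was left out. BIRC3 never passed. Low counts limit BIRC3, TNFAIP2 and RELB most. No paired analysis was made because the labels do not pair libraries between the groups.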
